A study of Rattus norvegicus with 20 samples.

Results

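The Nr4a genes encode a small family of orphan nuclear receptors, Nr4a1 (Nur77), Nr4a2 (Nurr1) and Nr4a3 (Nor1), and they are 3 of the 17168 genes measured in the hippocampus of TgF344-AD rats. The 3 genes were chosen by symbol, with earlier results of these rats known, so their differences between groups are given as a description and without a p-value. The rats were 20 females, 4 months old, and each gave 1 library of stranded mRNA. A genotype comparison held 5 wild-type rats fed plain chow (WTNT) and 5 untreated transgenic rats (TGNT), and it asked which transcripts differ early in this Alzheimer's model. A treatment comparison held 4 further TGNT rats and 6 transgenic rats (TGTR) given diazoxide, which opens potassium channels, together with dibenzoylmethane, which counters the translational block of the unfolded protein response. The TGTR rats ate both compounds in their chow from day 52 of life, and the comparison asked what the combination does to hippocampal transcripts. The transgenic rats carry mutant human APP and another mutant human transgene, both under the prion promoter. The labels name the left hippocampus as the source, whereas the methods of the paper name the right. The methods also place a maze task at the age of collection, and the interval between that task and the removal of the brain is not stated.

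Unlike most nuclear receptors, the Nr4a proteins have a ligand pocket filled by their own side chains. Their amount is held to be a main control of their activity, which was not measured here. They are immediate early genes: synaptic activity and cAMP switch on their transcription within minutes through factors such as CREB, and the proteins then bind DNA alone at the NBRE site or in pairs. Nr4a1 and Nr4a2 also pair with the retinoid X receptors, and Nr4a3 does not. In the rodent hippocampus the family is switched on by learning and takes part in turning a new memory into a lasting one. Nr4a2 is in addition required for the making of midbrain dopamine neurons and is strongly expressed in the subiculum, the deep cortical layers and the claustrum.

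Because CREB is a main input to these genes, the promoters are shown with matches to its binding letters. RefSeq promoter sequences of the GRCr8 build were found for 2 of the 3 genes, Nr4a1 at chr7:134259888-134260187 on the plus strand and Nr4a2 at chr3:62104838-62105137 on the minus strand. Each window runs 5′ to 3′ from 250 bases before the annotated start to 50 bases after it, and capitals mark the core of the cAMP response element (CRE), TGACG, on either strand.
Nr4a1: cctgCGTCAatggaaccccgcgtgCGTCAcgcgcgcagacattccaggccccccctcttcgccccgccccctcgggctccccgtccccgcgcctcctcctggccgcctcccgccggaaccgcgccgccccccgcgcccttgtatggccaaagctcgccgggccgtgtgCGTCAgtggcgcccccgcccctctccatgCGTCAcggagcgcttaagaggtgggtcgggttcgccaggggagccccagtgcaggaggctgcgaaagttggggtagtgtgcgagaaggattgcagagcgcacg
Nr4a2: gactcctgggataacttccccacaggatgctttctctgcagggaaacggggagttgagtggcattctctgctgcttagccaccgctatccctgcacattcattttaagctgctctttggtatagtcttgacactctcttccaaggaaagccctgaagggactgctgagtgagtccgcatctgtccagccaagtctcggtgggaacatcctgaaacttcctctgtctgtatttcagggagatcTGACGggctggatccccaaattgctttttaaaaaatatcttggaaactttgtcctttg
The Nr4a1 window held 4 core matches, all on the opposite strand, so that the printed strand reads CGTCA, and their first bases lay at -246, -226, -82 and -53 from the start. The Nr4a2 window held 1 match, on the same strand, at -8. At least 1 such match was present in 21.2% of the 33469 promoters in the table and at least 4 in 0.236%. G and C made up 72.3% of the Nr4a1 window and 48.7% of the Nr4a2 window, beside a median of 51.7% over all promoters. Another 6 motifs were searched on both strands and were not found in either window, and the share of all promoters with each was 1.83% for the full CRE TGACGTCA (which contains the core), 4.63% for the AP-1 site TGACTCA, 1.43% for the NBRE AAAGGTCA, 0.544% for the EGR site GCGTGGGCG, 1.64% for the CArG box of serum response factor and 3.29% for the MEF2 site. These matches describe the letters of the window and carry no information on what binds there.

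Levels are given as RPM, reads scaled by the TMM method to a common library total, which the authors computed over the 10 rats of each comparison separately, so levels are not compared between the comparisons. Reads were assigned to genes as estimated counts. In the genotype comparison the counts summed to between 5848458 and 9926088 in the WTNT rats (median 6300653) and to between 6610498 and 8117561 in their TGNT counterparts (median 7831894). In the treatment comparison the counts summed to between 11151973 and 13481985 in TGNT rats and between 9215039 and 14175594 in TGTR rats. The totals of the counts were not separated between the groups by exact two-sided permutation tests (p = 0.706 for genotype and p = 0.667 for treatment). Nr4a1 was read from 231 to 661 counts per rat, all of them whole numbers. Nr4a2 had fractional counts in every rat, as the counting program gives when it shares out reads that match more than 1 place. For Nr4a3 the counts were whole in 3 of 5 WTNT rats, 3 of 5 TGNT rats of that comparison, 2 of 4 TGNT rats of the other comparison and 3 of 6 TGTR rats. As a check of the tissue label, 10 markers of hippocampal neurons summed to between 6377 and 7967 RPM in the genotype comparison and between 4763 and 6681 RPM in the treatment comparison, but the sum does not set the hippocampus apart from other forebrain. In the genotype comparison Snap25, a gene of neurons in general, had the highest mean on the list (2571 to 3256 RPM), and in TGNT rats of the treatment comparison it averaged 1681 RPM beside 1762 RPM for Camk2a. Of markers of single hippocampal fields, Prox1 of the dentate gyrus averaged 129.8 RPM in WTNT rats and 115 RPM in TGNT rats of the genotype comparison and Fibcd1 of CA1 averaged 119 and 110.4 RPM, while the dentate markers Tdo2 and Lct were at most 0.319 and 1.01 RPM in any rat. Of the thalamus and habenula list, Gbx2 was at 0 in all 20 rats, while the other 5 genes in the tables were read, with list sums from 39.4 to 112 RPM in the genotype comparison and from 41.4 to 79.9 RPM in the treatment comparison. Some rats of the treatment comparison stood apart in marker levels, TGTR replicates 5 and 6 in choroid plexus genes, TGTR replicate 4 in blood genes and TGNT replicate 1 in hippocampal neuron and dentate genes, and the treatment values of the 3 members are given without each of these rats.

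Nr4a1 codes for Nur77, the founding member of the family. In WTNT replicates 1 to 5 it stood at 51.5, 56.2, 41.1, 49.5 and 36.8 RPM, and in TGNT replicates 1 to 5 at 33.6, 36.8, 30.7, 34.3 and 35.3 RPM. Every TGNT rat was below every WTNT rat, although WTNT replicate 5 and TGNT replicate 2 were 0.0092 RPM apart. The means were 47.0 ± 7.93 RPM (SD, n = 5) in WTNT rats and 34.1 ± 2.27 RPM (SD, n = 5) in TGNT rats, and the fitted log2 fold change was -0.47 (SE 0.105), or -27.6%. The WTNT rats were also the more scattered, with a coefficient of variation of 16.9% against 6.66%. In tissue of mixed cells, fewer cells of a type and less RNA per cell cannot be told apart. Nr4a1 and Nr4a3 were thus 2 of 3 members with every TGNT rat below every WTNT rat, a pattern seen in 0.317% of the 11357 genes averaging 10 counts or more, and nothing is read from this because the members were chosen with the differences known. The opposite pattern, with every TGNT rat above, held for 0 of 3 members and for 0.335% of those genes.

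Nr4a3, which does not pair with the retinoid receptors, was the steadiest between rats. It stood at 151, 153, 134, 145 and 143 RPM in WTNT replicates 1 to 5 and at 120.5, 118, 134, 125 and 127 RPM in TGNT replicates 1 to 5. The groups again did not overlap, with WTNT replicate 3 above TGNT replicate 3 by 0.165 RPM. The means were 145 ± 7.57 RPM and 125 ± 6.08 RPM (SD, n = 5 each), and the log2 fold change was -0.21 (SE 0.0596), or -13.8%. The coefficient of variation was 5.22% in WTNT rats and 4.87% in TGNT rats, the lowest among the 3 genes in that comparison.

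Nr4a2 behaved differently, with rats of 1 genotype spread more widely than the genotypes were apart. Its levels in WTNT replicates 1 to 5 were 59.0, 83.0, 135, 64.0 and 89.5 RPM, and in TGNT replicates 1 to 5 they were 59.3, 95.2, 73.9, 104 and 70.6 RPM. The groups overlapped, and WTNT replicate 3 was the highest of the 10 rats. The means were 86.1 ± 30.2 RPM and 80.7 ± 18.5 RPM (SD, n = 5 each), with a log2 fold change of -0.10 (SE 0.197). Its sign rests on single rats, because the log2 fold change was 0.11 without WTNT replicate 3 and 0.00049 without TGNT replicate 1.

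**Figure D1:**
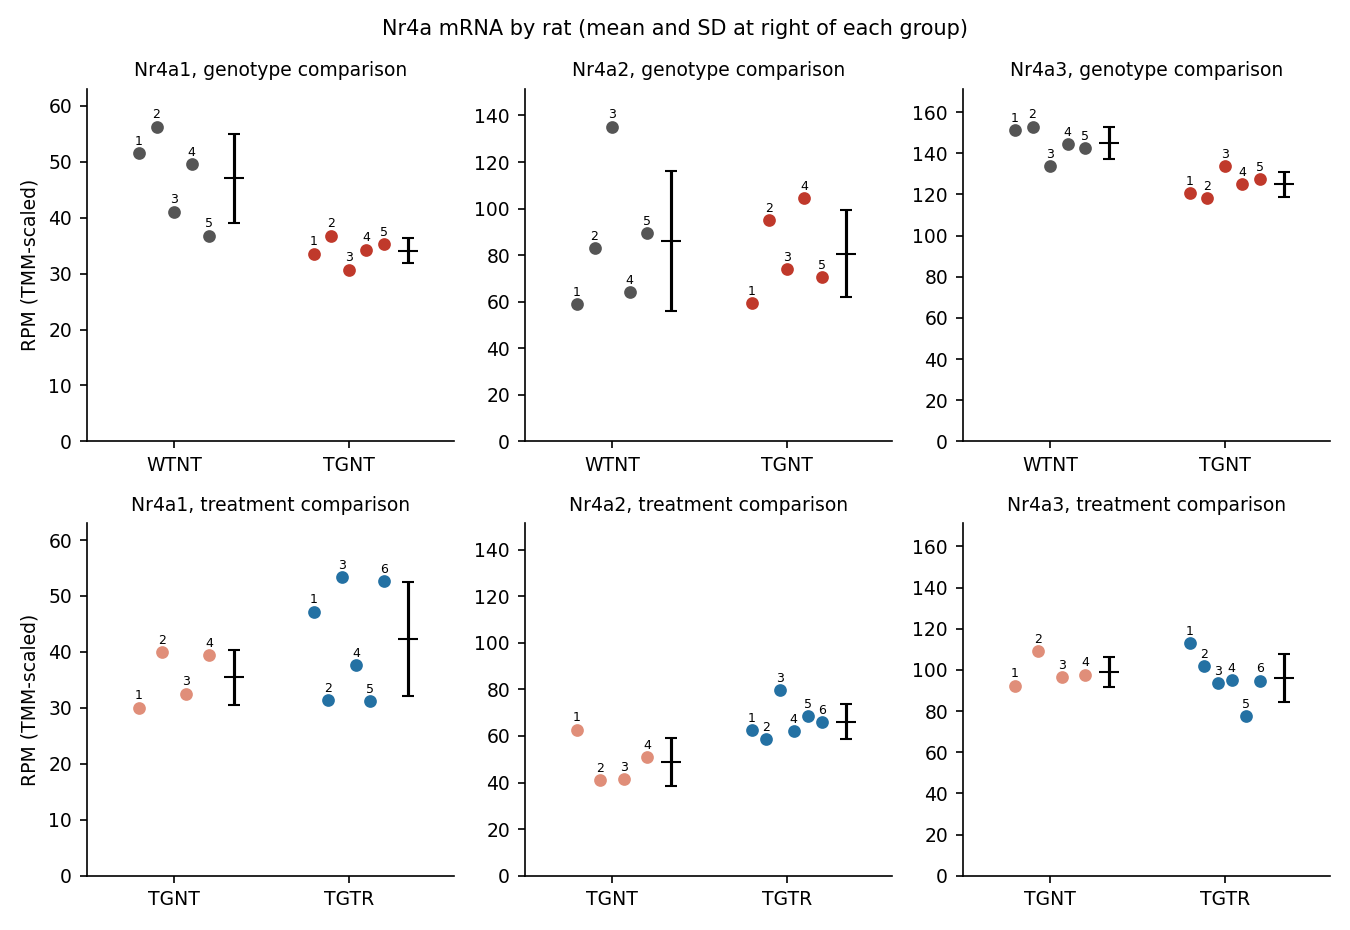
Levels of Nr4a1, Nr4a2 and Nr4a3 in RPM (vertical axes) for each rat of the genotype comparison (upper panels) and the treatment comparison (lower panels), with the replicate number at each point and the group mean and SD as a bar beside the points. Nr4a1 and Nr4a3 do not overlap between WTNT and TGNT rats, while Nr4a2 in TGTR rats sits between 58.6 and 79.6 RPM and all but TGNT replicate 1 of the untreated rats lie below that range.

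With diazoxide and dibenzoylmethane, the order of the members was another. Nr4a2 stood at 62.7, 41.0, 41.3 and 50.9 RPM in TGNT replicates 1 to 4, and in the 6 TGTR rats its lowest, median and highest levels were 58.6, 64.2 and 79.6 RPM. TGNT replicate 1 overlapped the treated group, the other 3 TGNT rats were below all 6 TGTR rats, and 3 of 6 TGTR rats were above every TGNT rat. The means were 49.0 ± 10.3 RPM (SD, n = 4) for TGNT and 66.2 ± 7.39 RPM (SD, n = 6) for TGTR rats. They were 17.2 RPM apart, more than either SD, and the log2 fold change was 0.44 (SE 0.119), or 35.5%. Without TGNT replicate 1 the log2 fold change was 0.58, without TGTR replicates 4, 5 or 6 it was 0.45, 0.43 or 0.44, and without both replicates 5 and 6 it was 0.42. A difference of at least 0.44 in either direction was fitted for 3.31% of the genes averaging 10 counts or more.

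Nr4a1 showed a split among the treated rats. It stood at 30.1, 39.9, 32.5 and 39.4 RPM in TGNT replicates 1 to 4, and the lowest, median and highest of the TGTR rats were 31.2, 42.4 and 53.4 RPM. TGTR replicates 1, 3 and 6 were above every TGNT rat and the remaining 3 lay within the untreated range. The means were 35.5 ± 4.94 RPM (SD, n = 4) and 42.2 ± 10.2 RPM (SD, n = 6), with a log2 fold change of 0.26 (SE 0.162), a difference smaller than the spread among the TGTR rats. It was 0.19 without TGNT replicate 1, 0.29 without TGTR replicate 4, 0.33 without TGTR replicate 5 and 0.18 without TGTR replicate 6.

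Nr4a3 stood at 92.4, 109, 96.5 and 97.6 RPM in TGNT replicates 1 to 4 and at 77.4 (lowest), 94.9 (median) and 113 RPM (highest) in TGTR rats. The groups overlapped, and both the lowest and the highest rat were treated, TGTR replicates 5 and 1. The means were 98.9 ± 7.19 RPM (SD, n = 4) and 95.9 ± 11.6 RPM (SD, n = 6), and the log2 fold change of -0.04 (SE 0.0853) had no fixed sign, since it was 0.0068 without TGNT replicate 2, 0.01 without TGTR replicate 5 and 0.03 without TGTR replicates 5 and 6 together. It was -0.07 without TGNT replicate 1 and -0.04 without TGTR replicate 4 or 6. In the treatment comparison 0 of 3 members had every TGTR rat below every TGNT rat, against 0.648% of the 12029 genes averaging 10 counts or more, and 0 of 3 had every TGTR rat above, against 0.806%.

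Genes were called when the edgeR quasi-likelihood test gave a Benjamini-Hochberg adjusted p under 0.05 and the fold change reached 1.5. The calls covered 0 of 3 members in the genotype comparison, where 2 of 17168 genes (0.0116%) were called, both higher in TGNT rats and neither on any list used here, and 568 had an unadjusted p under 0.05. In the treatment comparison 0 of 3 members and 0 genes in all (0%) were called, with 843 genes at an unadjusted p under 0.05. Other tools called from 2 to 4 genes for genotype and from 0 to 5 for treatment, with no Nr4a gene among them. The widest fitted difference of a member was -0.47 on the log2 scale, which is below the 1.5-fold threshold, so the 3 genes were outside the calls by size as well. Differences at least as large were fitted for 1.69% of genes for Nr4a1, 37.0% for Nr4a2 and 12.3% for Nr4a3 in the genotype comparison, and for 9.40%, 3.31% and 67.3% in the treatment comparison.

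Other immediate early transcription factors share the Nr4a genes' induction by activity, and 14 of 16 on the list averaged 10 counts or more. In TGNT against WTNT rats 6 were higher and 8 lower, and their median log2 fold change was -0.09 (-0.16 to -0.02 with 1 rat left out), beside 5686 higher and 5671 lower and a median of 0.00021 over all genes. In TGTR against TGNT rats 13 were higher and 1 lower, with a median of 0.28 (0.24 to 0.35 with 1 rat left out), beside 6028 higher and 6001 lower and a median of 0.00023 over all genes. None of the listed genes was called in either comparison. Among those with the largest differences, Egr2, a zinc-finger factor of the early growth response family, had log2 fold changes of -1.02 (SE 0.212) for genotype and 0.84 (SE 0.255) for treatment. Its close relative Egr1 had -0.58 (SE 0.139) for genotype, where Egr4 had -0.43 (SE 0.230) and the antiproliferative cofactor Btg2 had 0.40 (SE 0.207), with ranges of -0.69 to -0.31 and 0.22 to 0.58 when 1 rat was left out. In the treatment comparison Fos, a subunit of AP-1, had 0.88 (SE 0.306), the neuron-specific factor Npas4 had 0.71 (SE 0.346, and 0.46 to 0.93 with 1 rat left out) and Egr4 had 0.41 (SE 0.114). Egr2 was called for genotype by edgeR's likelihood ratio test (adjusted p = 0.0145) and by its exact test (adjusted p = 0.0199), and by none of the other tools.

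The list of 21 activity-regulated effectors holds genes whose proteins act at synapses or on signalling, downstream of the same stimuli. In TGNT rats 3 were higher and 18 lower than in WTNT rats, and the median log2 fold change was -0.25 (-0.30 to -0.15 with 1 rat left out), and in TGTR rats 11 were higher and 10 lower than in TGNT rats, with a median of 0.02 (-0.02 to 0.08 with 1 rat left out). Arc, whose protein removes AMPA receptors from synapses, had log2 fold changes of -0.51 (SE 0.166) and 0.51 (SE 0.195) for genotype and treatment. The phosphatase gene Dusp1, which turns off MAP kinases, had 0.49 (SE 0.160) and 0.60 (SE 0.203), higher in TGNT rats for genotype and in TGTR rats for treatment. Dusp5 (-0.55, SE 0.203) and the pseudokinase gene Trib1 (-0.56, SE 0.191) were among the largest for genotype, and the kinase gene Sik1 (0.43, SE 0.150) and Dusp6 (0.21, SE 0.139, and 0.12 to 0.29 with 1 rat left out) for treatment. None of these was called.

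**Figure D2:**
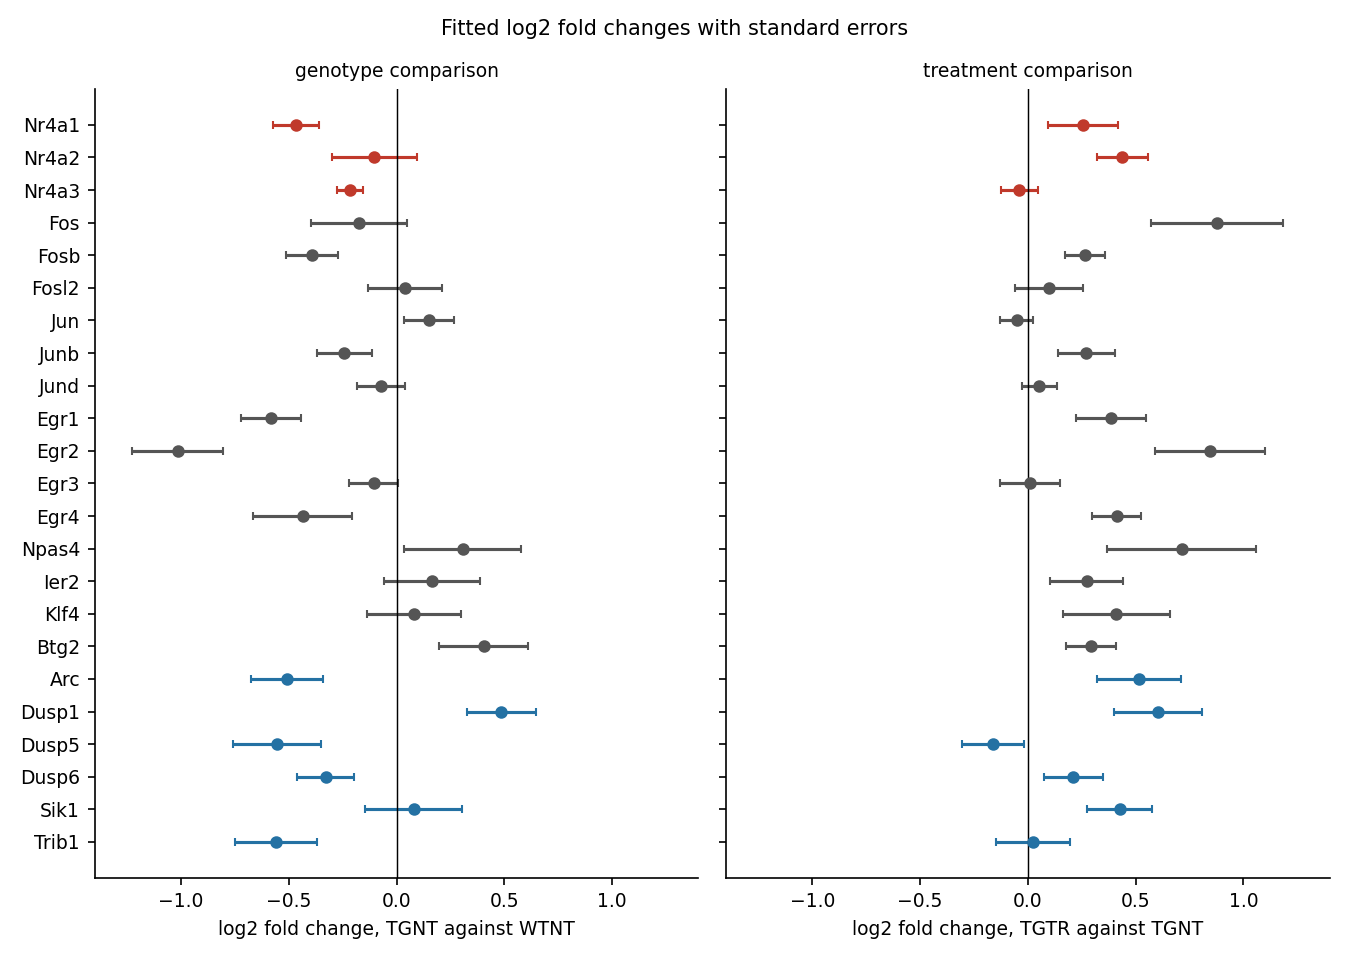
Fitted log2 fold changes (horizontal axes) with standard errors (bars) of the Nr4a genes (red), the 14 other immediate early transcription factors averaging 10 counts or more (grey) and 6 activity-regulated effectors (blue), for TGNT against WTNT rats and TGTR against TGNT rats. Nr4a1 lies at -0.47 and 0.26, and Egr2 reaches the lowest value among the genes drawn, -1.02, in the genotype comparison.

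The partners and inputs of the family come next, and none of them was called. Of the 3 retinoid X receptors, which pair with Nr4a1 and Nr4a2, 2 were higher for genotype (TGNT against WTNT) and 1 for treatment (TGTR against TGNT). Rxrg had 0.56 (SE 0.463) for genotype and -0.18 (SE 0.365) for treatment, beside 0.16 (SE 0.216) and 0.20 (SE 0.157) for Rxra and -0.16 (SE 0.105) and -0.05 (SE 0.0730) for Rxrb. The Rxrg values rest on single rats: leaving out 1 rat gave 0.29 (without WTNT replicate 2) to 1.09 (without WTNT replicate 5) for genotype and -0.44 (without TGTR replicate 2) to 0.28 (without TGNT replicate 1, where the sign changed) for treatment. For Rxra the same ranges were 0.05 to 0.42 and 0.10 to 0.40, and for Rxrb -0.21 to -0.09 and -0.11 to -0.01. Of the 14 genes of the CREB, serum response factor and MEF2 inputs in the tables, 4 were higher and 10 lower for genotype (median -0.06, and -0.10 to -0.02 with 1 rat left out) and 7 were higher and 7 lower for treatment (median -0.01, and -0.05 to 0.03 with 1 rat left out). Camk4, a nuclear kinase that activates CREB, had the largest genotype value, -0.42 (SE 0.216). The MAP kinase gene Mapk3 had 0.22 (SE 0.0770), and Camk2a, a synaptic calcium-dependent kinase, had -0.20 (SE 0.160). For treatment the largest values were -0.14 (SE 0.175) for Camk2a, 0.14 (SE 0.0820) for the CREB relative Atf1, -0.12 (SE 0.0795) for the CREB coactivator Crtc2 and -0.10 (SE 0.0622) for Prkaca, the catalytic subunit of the cAMP-dependent kinase. Leaving out 1 rat gave Camk2a values from -0.34 to -0.07 for genotype and from -0.29 to -0.05 for treatment, and treatment values from -0.19 to -0.07 for Crtc2 and from -0.13 to -0.06 for Prkaca.

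Some genes that Nr4a2 is known to drive in dopamine neurons were read in this tissue and others were near 0. Of the 9 in the tables, 6 averaged 10 counts or more for genotype, 3 of them higher and 3 lower (median -0.01, and -0.05 to 0.0046 with 1 rat left out), and 7 did for treatment, 4 higher and 3 lower (median 0.24). The treatment median was 0.05 to 0.32 with 1 rat left out, lowest without TGNT replicate 3, and -0.04 without TGTR replicates 5 and 6 together, so its direction turned. The dopamine transporter gene Slc6a3 averaged 0.025 RPM in TGNT rats and 0 in WTNT rats, and Aldh1a1 averaged 32.2 and 38.4 RPM in the same groups. For genotype the largest values were 0.30 (SE 0.201) for the neuropeptide gene Vip, -0.25 (SE 0.138) for the retinaldehyde dehydrogenase gene Aldh1a1, -0.11 (SE 0.214) for the dopa decarboxylase gene Ddc and 0.10 (SE 0.296) for the dopamine receptor gene Drd2. For treatment they were 0.78 (SE 0.269) for Drd2, 0.31 (SE 0.428) for the tyrosine hydroxylase gene Th, 0.30 (SE 0.197) for Vip and 0.24 (SE 0.125) for the vesicular monoamine transporter gene Slc18a2. With 1 rat left out the genotype values ran from 0.19 to 0.56 for Vip, from -0.35 to -0.16 for Aldh1a1 and from -0.20 to -0.03 for Ddc, and the treatment values from 0.14 to 0.51 for Vip and from 0.15 to 0.32 for Slc18a2. The genotype value of Drd2 was 0.41 without WTNT replicate 3 and -0.0046 without WTNT replicate 1, and its treatment value was 1.19 without TGNT replicate 1. The treatment value of Th was 0.83 without TGNT replicate 1 and -0.04 without TGTR replicates 5 and 6, and none of these genes was called.

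Variation between rats of the same group uses no difference between groups, and it was tested for 12 relations. Each rat's log2(RPM + 1) was taken as a deviation from its group mean, and Pearson's r and Spearman's rho over the 10 rats of a comparison were tested by permuting rats within groups. None of the 12 relations among members, or between a member and the mean of the other immediate early transcription factors, passed at a Benjamini-Hochberg adjusted p under 0.05 (lowest adjusted p = 0.536 for r and 0.520 for rho). Nr4a2 and Nr4a3 ran in opposite directions without reaching the threshold, with r = -0.53 (rho -0.41, permutation p = 0.152) for genotype and r = -0.46 (rho -0.56, permutation p = 0.139) for treatment. Without the 2 farthest rats r was -0.24 and -0.51, and with 1 rat left out r ran from -0.72 to -0.18 for genotype and from -0.59 to -0.35 for treatment. Nr4a1 and the mean of the other early factors had r = -0.02 (rho 0.08, permutation p = 0.943) for genotype and r = 0.55 (rho 0.55, permutation p = 0.179) for treatment, and these were 0.16 and 0.78 without the 2 rats farthest from the median. A p above the threshold does not show that the members vary independently.

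The genes whose levels ran most like each member were ranked by the lower of their within-group r in the 2 comparisons, among 10969 genes averaging 10 counts or more in both. These are the highest of many values, so no test is given. For Nr4a1 the first was Arc, with r of 0.96 (rho 0.96) in the genotype comparison and 0.93 (rho 0.85) in the treatment comparison, and 0.96 and 0.94 without the 2 farthest rats. Within WTNT rats, Arc ran from 130.4 RPM in replicate 1 to 62.0 RPM in replicate 5 (55.0 to 82.2 RPM within TGNT rats), and within TGTR rats from 140.0 RPM in TGTR replicate 3 to 72.0 RPM in TGTR replicate 5, the rat with the lowest Nr4a1 of the treated group (56.1 to 96.5 RPM within TGNT rats). Arc stayed first in 22 of 22 alternatives. Next came Kcnip4, a partner of A-type potassium channels (0.85), Pou3f1, a transcription factor gene of CA1 (0.82), the zinc-finger gene Zfp180 (0.82) and the glucocorticoid-induced gene Glcci1 (0.81). Without the 2 farthest rats the genotype and treatment r were 0.92 and 0.76 for Kcnip4 and 0.59 and 0.66 for Pou3f1. They were 0.67 and 0.64 for Zfp180 and 0.42 and 0.65 for Glcci1.

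Nr4a2 ran most like Slc27a2, which codes for an acyl-CoA synthetase of very long fatty acids (lower r 0.90), and that gene was first in 15 of 22 alternatives. It was followed by the nuclear factor gene Tcf19 (0.88), the nicotinic receptor subunit gene Chrna5 (0.84) and the metabotropic glutamate receptor gene Grm8 (0.84), and the value of 1 more of its first 5 genes is not reported. Nr4a3 ran most like Lsm11, part of the machinery that trims histone mRNA (0.91), which stayed first in 22 of 22 alternatives. After it came Dvl3 of the Wnt pathway (0.87), the death receptor gene Tnfrsf21 (0.85), the sodium channel regulator gene Fgf13 (0.82) and the synaptic adhesion gene Slitrk3 (0.81). Of these 4, Slitrk3 had a treatment r of 0.46 without the 2 farthest rats, Tnfrsf21 0.58, Dvl3 0.59 and Fgf13 0.72. Lsm11 had a treatment r of 0.71 without them. The 22 alternatives kept a median of 4 of the first 5 for each member and as few as 2 for Nr4a1 and 1 for Nr4a2 and for Nr4a3. The first 5 genes were different for each member, and genes with a lower r above 0.8 numbered 6 for Nr4a1, 17 for Nr4a2 and 5 for Nr4a3.

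**Figure D3:**
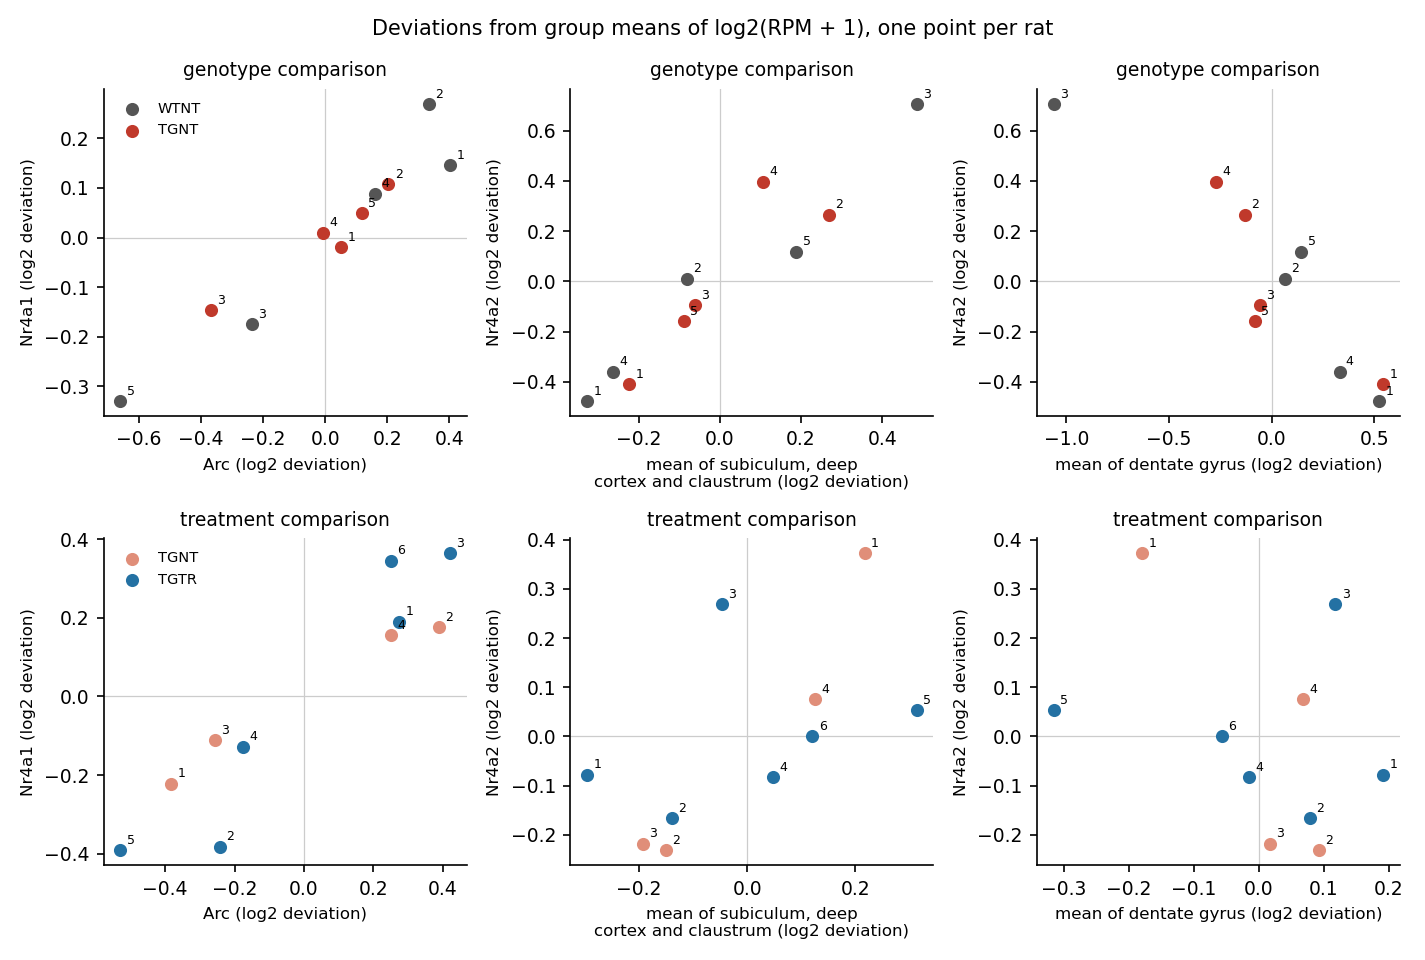
Deviation of each rat from its group mean in log2(RPM + 1), for Nr4a1 against Arc (left), Nr4a2 against the mean of the subiculum, deep cortex and claustrum markers (middle) and Nr4a2 against the mean of the dentate gyrus markers (right), in the genotype (upper) and treatment (lower) comparisons. Within-group r is 0.96 and 0.93 for Arc, 0.95 and 0.60 for the subiculum list, and -0.91 and -0.36 for the dentate list.

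Because Nr4a2 is a marker of the subiculum and its neighbours, the members were also set against the means of 9 lists of marker genes, 54 relations in all, computed after the values had been seen and adjusted together by the Benjamini-Hochberg method. By Pearson's r, 3 had an adjusted p under 0.05, all for Nr4a2 in the genotype comparison, and by Spearman's rho 2 of these did. Nr4a2 ran with the subiculum, deep cortex and claustrum list at r = 0.95 (rho 0.94, permutation p = 0.00025, adjusted p = 0.00702), and r was 0.96 without the 2 farthest rats. It ran against the dentate gyrus list at r = -0.91 (rho -0.87, permutation p = 0.00026, adjusted p = 0.00702), with -0.81 without those rats. With the thalamus and habenula list it had r = 0.87 (rho 0.81, permutation p = 0.00104, adjusted p = 0.0187), which did not pass by rho (adjusted p = 0.136), with 0.84 without the farthest 2. Over 11 alternatives, r ran from 0.91 to 0.98 for the subiculum list and from -0.94 to -0.86 for the dentate list, and the adjusted p of each ran from 0.00702 to 0.0620, past 0.05 without WTNT replicate 3 and without TGNT replicate 1. The thalamic relation ran from 0.75 to 0.91 with an adjusted p from 0.0207 to 0.106, and it lost the threshold when any of 6 rats was left out, WTNT replicates 2, 3 and 4 and TGNT replicates 1, 2 and 4.

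The rats behind these relations can be seen in the summed marker levels. WTNT replicate 3, with the highest Nr4a2, had the highest subiculum sum of all 10 rats, 345 RPM against 263 to 331 RPM, and the lowest dentate sum of all 10 rats, 224 RPM against 346 to 576 RPM. Its thalamic sum was also the highest, 112 RPM against 39.4 to 91.7 RPM. WTNT replicate 1 and TGNT replicate 1, with the lowest Nr4a2 in their groups, had the highest dentate sums of those groups, 508 and 576 RPM. The genes with the highest means behind the sums were Tle4 for the subiculum list, Calb1 and Prox1 for the dentate list and Slc17a6 for the thalamic list. Tle4 and Calb1 did not follow the sums in every rat. Tle4 stood at 122 RPM in WTNT replicate 3 and at 127 RPM in WTNT replicate 2. Calb1 stood at 114 RPM in WTNT replicate 1 and at 151 RPM in WTNT replicate 5. In the treatment comparison the same relations had r = 0.60 (permutation p = 0.0847), r = -0.36 (permutation p = 0.267) and r = 0.62 (permutation p = 0.0795) with adjusted p of 0.269, 0.480 and 0.268, so none passed there, and whether the comparisons differ was not tested. Over 11 alternatives these treatment values of r ran from 0.47 to 0.75, from -0.60 to -0.06 and from 0.31 to 0.75.

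For the other members no marker relation passed with all rats. Nr4a1 ran with the list of hippocampal neurons at r = 0.90 (rho 0.85) for genotype and r = 0.78 (rho 0.59) for treatment, with an adjusted p of 0.0926 by the Benjamini-Hochberg method over permutation p-values of 0.0115 and 0.0136. With the CA1 list Nr4a1 had r = 0.80 for treatment (rho 0.58, permutation p = 0.0137, adjusted p = 0.0926). Leaving out the 2 farthest rats gave Nr4a1 an r of 0.89 (genotype) and 0.56 (treatment) with the hippocampal neuron list. With the CA1 list it gave 0.60 for treatment. Nr4a3 in the treatment comparison ran with the dentate list at r = 0.88 (rho 0.70, permutation p = 0.00407, adjusted p = 0.0549) and against the subiculum list at r = -0.85 (rho -0.67, permutation p = 0.00574, adjusted p = 0.0620). Without the 2 farthest rats these r of Nr4a3 were 0.62 and -0.63. Single rats decide these: over 11 alternatives the adjusted p of the dentate relation ran from 0.00810 to 0.245, passing without TGNT replicate 4 or TGTR replicate 3, and that of the subiculum relation from 0.0147 to 0.200, passing without TGNT replicate 3. Without WTNT replicate 1, the genotype relations of Nr4a1 with the CA1 list (r = 0.60 with all rats) and the blood list (r = -0.69) passed as well, each at an adjusted p of 0.0443. The hippocampal neuron list shares genes with the dentate list (Prox1) and with the CA1 list (Wfs1 among them), so these relations overlap in their genes. Pou3f1, ranked above among the genes most like Nr4a1, is also on the CA1 list.

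**Figure D4:**
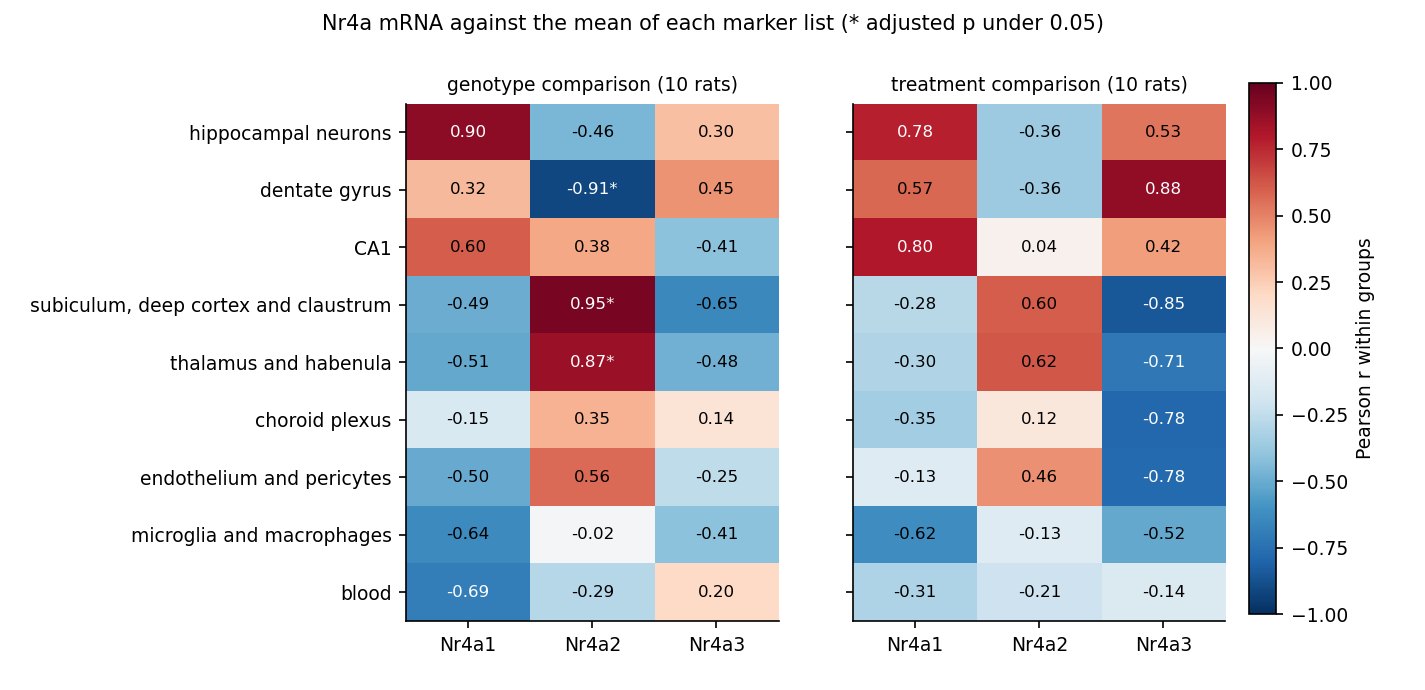
Within-group Pearson r (colour and printed value) of Nr4a1, Nr4a2 and Nr4a3 with the mean of each of 9 marker lists, over the 10 rats of the genotype comparison (left) and of the treatment comparison (right), with an asterisk at an adjusted p under 0.05. The 3 asterisks are in the Nr4a2 column of the genotype comparison, at 0.95, -0.91 and 0.87.

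Some of these lists also stood higher in TGTR rats, in the comparison in which Nr4a2 was the member with the largest difference. The subiculum list had 9 of 10 genes higher in TGTR rats (median log2 fold change 0.47). The median was 0.36 without TGTR replicate 5, 0.28 without TGNT replicate 2 or 3 and 0.20 without both TGTR replicates 5 and 6, and its sum ran from 247 to 311 RPM in TGNT rats and from 284 to 409 RPM in TGTR rats. TGNT replicate 1, which had the highest Nr4a2 of the untreated rats, also had their highest subiculum sum. The thalamic list had 4 of 5 genes higher (median 0.25), with sums from 41.4 to 55.4 RPM in TGNT rats and from 56.3 to 79.9 RPM in TGTR rats, which did not overlap. Its most abundant gene, Slc17a6, the vesicular glutamate transporter of thalamic neurons, was called by DESeq2, the likelihood ratio test and the exact test (adjusted p = 0.000965, 0.00154 and 0.00175) but not by the quasi-likelihood test. Slc17a6 alone ran from 13.5 to 21.3 RPM in TGNT rats and from 23.6 to 39.2 RPM in TGTR rats. The paper reports this gene among those raised by the treatment. Single genes with every TGTR rat above every TGNT rat made up 0.806% of those averaging 10 counts or more. Whether the list sums separate without Slc17a6 was not tested. The CA1 list had 5 of 6 genes higher (median 0.19, and 0.15 to 0.33 with 1 rat left out), and the dentate list 2 of 5 (median -0.05, and -0.19 to 0.05 with 1 rat left out). Of the 10 genes on the hippocampal neuron list, 3 were higher and 7 lower (median -0.05, and -0.18 to 0.0028 with 1 rat left out). The part of these markers in the Nr4a2 difference was not tested.

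Non-neuronal markers set apart a few treated rats. The 11 choroid plexus genes summed to between 87.7 and 136 RPM in TGNT rats, to 3762 RPM in TGTR replicate 5 and to 304 RPM in TGTR replicate 6, against 98.3 to 144 RPM in the other 4 TGTR rats. Ttr was the most abundant in TGTR replicate 5, at 2501 RPM, whereas in TGNT rats Ttr was at 3.34 to 11.7 RPM and Enpp2, at 74.0 to 117 RPM, made up most of the sum. Without TGTR replicates 5 and 6, an alternative chosen after the values were seen, the treatment log2 fold changes were 0.26 for Nr4a1, 0.42 for Nr4a2 and 0.03 for Nr4a3. With all rats they were 0.26, 0.44 and -0.04. For Nr4a1 the 2 rats moved the value in opposite directions, to 0.33 without TGTR replicate 5 alone and 0.18 without TGTR replicate 6 alone. The part of the choroid plexus genes in these differences was not tested. All 11 choroid genes were higher in TGTR rats (median 3.19), and the median was 0.50 without TGTR replicate 5 and -0.32 without both rats. The blood list had 5 of 5 genes higher (median 0.96, and 0.14 without TGTR replicate 4), and TGTR replicate 4 had a sum of 1351 RPM against 173 to 274 RPM in the other 9 rats. Endothelial and pericyte genes were higher in 7 of 7 (median 0.18, and 0.11 to 0.22 with 1 rat left out) and microglial genes in 2 of 10 (median -0.03, and -0.06 to -0.03).

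In the genotype comparison, in which Nr4a1 and Nr4a3 had the clearer differences, 9 of 10 genes on the hippocampal neuron list were lower in TGNT rats (median -0.15, and -0.22 to -0.07 with 1 rat left out) and 5 of 6 on the CA1 list (median -0.13, and -0.24 to -0.08). The dentate list had 3 of 5 genes higher (median 0.10), the subiculum list 8 of 9 (median 0.10) and the thalamic list 4 of 5 (median 0.12). With 1 rat left out these medians ran from -0.03 to 0.23, from 0.01 to 0.22 and from -0.04 to 0.36, and the sign changed for the dentate list without TGNT replicate 1 or WTNT replicate 3 and for the thalamic list without WTNT replicate 1. Both choroid plexus genes averaging 10 counts or more were lower (median -0.41), while 4 of 7 endothelial genes (median 0.04), 8 of 10 microglial genes (median 0.08, and 0.04 to 0.09 with 1 rat left out) and 3 of 4 blood genes (median 0.03) were higher. The choroid median ran from -0.99 to -0.18 with 1 rat left out, the endothelial one from -0.0041 (without WTNT replicate 4) to 0.09, and the blood median from -0.08 to 0.12, below 0 without TGNT replicates 3 or 5 or WTNT replicates 2, 3 or 4. None of the marker genes was called in this comparison, and the part of these markers in the Nr4a1 and Nr4a3 differences was not tested.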

How the data were processed

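Estimated counts were deposited by the authors, who counted reads per gene with RSEM without normalizing them. The submitters' processing notes name bcl2fastq 2.17, Bowtie2 2.1.0, RSEM 1.2.15, edgeR and the rn6 build. The deposited RPM are a signal made by the authors from the rounded counts with TMM factors, within 0.1% of the count times a constant for 100% of genes. Each comparison was fitted by itself on counts rounded to whole numbers, with edgeR 4.0.16 in R 4.3.3, TMM scaling and quasi-likelihood testing of 17168 genes without a filter. Benjamini-Hochberg adjustment used all genes. Calls needed an adjusted p under 0.05 together with a 1.5-fold difference. Correlations used 100000 permutations of rats within groups in Python 3.11.15 with numpy 2.4.6, scipy 1.17.1 and pandas 2.3.3. The scripts were tested on simulated data.

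Genes named are the 3 members, the 5 genes most like each member, listed genes that were called, and up to 4 genes with the largest difference from each of the first 5 lists; marker genes, Slc6a3 and Slc17a6 were named after their values were seen. The values of 2 genes that this rule names are not reported. The members and lists were chosen with earlier results of these data known. Listed symbols absent from the tables were not used: Crtc3, Ep300, Mef2c, En1, Dsp, Tshz2, Rora, Pou4f1, Slco1a4, Hba-a1 and Hba-a2. Alternatives were RLE, upper quartile and library-size scaling, edgeR's filter, likelihood ratio and exact tests, DESeq2 1.42.0, limma-trend (limma 3.58.1) on log2 RPM with 1 or 0.1 added, a replicate block and leaving out each rat. For the planned relations and the ranked genes they were a pseudocount of 0.1, edgeR's log2 CPM with a prior count of 2, and leaving out each rat. The marker relations had only 1 other setting besides leaving out each rat. The 54 marker relations and the fit without TGTR replicates 5 and 6 were added after the data were seen. Dixon's criterion was applied to the members and library totals, and to Arc and the marker sums after their values were seen.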

Additional observations from a re-analysis of the deposited data

Results flagged for a closer look

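In 5 of 56 groups of rats tested, 1 rat stood apart from the rest of its group by Dixon's 95% criterion, where chance gives about 2.8. All 5 are summed marker levels of the treatment comparison, and none of the Nr4a genes, Arc or the library totals met the criterion. TGNT replicate 1 was low in the hippocampal neuron list, at 5050 RPM with the next rat at 6476 RPM, and in the dentate gyrus list, at 295 RPM with the next at 352 RPM. The same rat had the highest Nr4a2 of the TGNT group, and the Nr4a2 log2 fold change was 0.58 without it. TGTR replicate 5 was high in the subiculum, deep cortex and claustrum list, at 409 RPM with the next at 325 RPM, and in the choroid plexus list, at 3762 RPM with the next at 304 RPM. TGTR replicate 4 was high in the blood list, at 1351 RPM with the next at 274 RPM.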

How the results depend on the processing

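The log2 fold changes of the 3 Nr4a genes moved by less than 1 SD between rats in 123 of 123 alternative values, and a member was called in 0 of them. This is a wide limit. The SD was larger than the difference itself for Nr4a2 in the genotype comparison (SD 0.40). The same held for Nr4a1 (SD 0.30) and Nr4a3 (SD 0.15) in the treatment comparison. For these a change of sign can still be within 1 SD. Leaving out each rat in turn gave -0.53 to -0.38 for Nr4a1, -0.22 to 0.11 for Nr4a2 and -0.25 to -0.19 for Nr4a3 in the genotype comparison. In the treatment comparison it gave 0.18 to 0.33, 0.36 to 0.58 and -0.10 to 0.01. The sign changed in 6 values, 2 for Nr4a2 in the genotype comparison and 4 for Nr4a3 in the treatment comparison. All 144 alternative values of r in the planned relations kept their side of the threshold. The sign of r changed in 2 values for Nr4a1 with the other early factors in the genotype comparison. In the treatment comparison it changed in 2 values for Nr4a1 with Nr4a2 and in 1 for Nr4a3 with the other early factors. Of 594 alternative values for the marker relations, 10 lost the threshold and 5 passed it. The medians of the other lists changed sign in 31 of 574 alternative values, and the log2 fold changes of the named genes of those lists in 3 of 779.

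The number of genes called moved more. For genotype it was 2 in the quasi-likelihood test, 4 in the likelihood ratio test and 4 in the exact test. For treatment it was 0 in the quasi-likelihood test, 3 in DESeq2, 5 in the likelihood ratio test and 4 in the exact test. The cause was not tested.

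With a replicate block, 2 genes were called for genotype and 1 for treatment, Ttr of the choroid plexus, which was lower in TGTR rats under the block (log2 fold change -2.55) against 6.05 without it, and the Nr4a3 treatment value was 0.03. The choroid plexus median was -0.30 under the block and 3.19 without it. The block cannot use TGTR replicates 5 and 6, which have no TGNT rat of the same number. Profiles of rats with the same number had r from -0.21 to 0.34 for genotype and from -0.58 to 0.14 for treatment, so the numbers do not pair the rats and the block is not used for a result. Depth limits the lists: genes under a mean of 10 counts were left out of their counts and medians.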
